A study of Homo sapiens with 8 samples.

Results

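The metallothioneins measured here were MT1E, MT1F, MT1G, MT1M, MT1X and MT2A, read beside their transcriptional regulator MTF1 and the zinc exporter SLC30A1. The 8 genes were chosen by name and were all found by symbol among the 58395 genes of the count table, 7 of them among the 15637 genes tested. RNA came from AB8, a human line of podocyte origin. Podocytes are the filtering epithelial cells of the kidney glomerulus. All libraries carried the doxycycline-inducible construct pIND21_hCrb2+GFP_S267A, which encodes human CRB2 with the S267A change together with GFP, at passage 3-8 after modification. The 4 woDox libraries were from non-induced cells and the 4 Dox libraries from cells induced with doxycycline for 48 h, with numbers 1 to 4 used in both groups. The labels do not say whether replicates were separate cultures or whether the line is a single clone. The p-values then cover only the spread among these 8 libraries, which may be technical. Doxycycline without the construct was not analysed here, and effects of the drug, of raised CRB2, of S267A and of GFP cannot be told apart. In such bulk RNA, fewer cells expressing a gene and less RNA per cell cannot be told apart either.

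Metallothioneins are small cysteine-rich proteins that bind zinc and copper and buffer their free concentration in the cytosol. MTF1 is a zinc-finger transcription factor that senses free zinc, enters the nucleus and binds metal response elements in the promoters of metallothionein genes and of SLC30A1. SLC30A1 (ZnT1) carries zinc out of the cell across the plasma membrane. Tetracyclines such as doxycycline bind divalent and trivalent metal ions, which is why the exporter is read beside the metallothioneins.

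Libraries held 16829454 to 23081616 counted reads. CRB2, the induced gene, stood at 8.31 to 26.4 CPM (counts per 10 to the power of 6 reads, with totals scaled by the trimmed mean of M-values, TMM) without and at 1734 to 4599 CPM with doxycycline, in the order that the labels give. Of 10 podocyte markers 6 passed the expression filter. The defining marker NPHS1, for nephrin, had 3 reads in all 8 libraries. Summed marker levels were 0.714 to 1.45 CPM for endothelial and 0.398 to 0.578 CPM for tubular lists. The mesangial list summed to 12.9 to 14.4 CPM without and 13.3 to 18.8 CPM with doxycycline. With the replicate number as a block, the mesangial marker PDGFRB (log2 change 0.34, edgeR adjusted p = 0.0299) and the podocyte marker PODXL (0.49, adjusted p = 0.035) rose, both chosen after seeing their values, and neither passed with DESeq2 and the block. The edgeR fit with the block called 13.8% of all tested genes, 7.51% higher and 6.29% lower. The other tested mesangial marker, GATA3, had a negative change in that edgeR fit and did not pass. Of the other tested podocyte markers, WT1 and PLA2R1 had negative and SYNPO, CD2AP and TCF21 positive changes there, and none passed. The leukocyte list, 3 of 6 tested, summed to 3.41 to 3.92 CPM without and 2.19 to 2.99 CPM with doxycycline. Of the 3, 2 had groups that did not overlap, Dox below, a pattern shown by 3.22% of tested genes. These 2, CSF1R and LST1, rested on few reads, 20 to 44 and 13 to 32 a library. None of the 3 passed in edgeR with or without the block. Without number 1 CSF1R passed with the block (log2 change -0.88, edgeR adjusted p = 0.0266) and without it (-0.88, 0.047). The part of these lists in the results was not tested. Both libraries numbered 1 stood apart from the rest of their groups. In all, 28.1% of tested genes were lowest and 28.2% highest in the libraries numbered 1 of both groups.

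The metal response element core is the 7-letter motif TGCACNC or TGCGCNC, read on either strand, and was searched in the promoters of the members. RefSeq promoter sequences (GRCh38.p14) were held for 4 of the 8 genes, MT1X, MT2A, MTF1 and SLC30A1. The 250 bases before the start are printed for MT2A (chr16:56608334-56608583, plus strand), the most abundant metallothionein here, for MT1X (chr16:56682220-56682469, plus strand), the one that was lower in every pair and passed the paired test, and for SLC30A1 (chr1:211579162-211579411, minus strand), the gene that passed in the other direction. MT1H (chr16:56669564-56669813, plus strand) is shown because it has 8 cores and almost no reads in these cells. Capitals mark the cores.
MT2A: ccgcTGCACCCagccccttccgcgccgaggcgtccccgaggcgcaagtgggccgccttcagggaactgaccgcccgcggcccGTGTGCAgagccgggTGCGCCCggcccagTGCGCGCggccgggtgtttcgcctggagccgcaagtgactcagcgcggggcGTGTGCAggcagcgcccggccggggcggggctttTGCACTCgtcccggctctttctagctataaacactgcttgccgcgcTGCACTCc
MT1X: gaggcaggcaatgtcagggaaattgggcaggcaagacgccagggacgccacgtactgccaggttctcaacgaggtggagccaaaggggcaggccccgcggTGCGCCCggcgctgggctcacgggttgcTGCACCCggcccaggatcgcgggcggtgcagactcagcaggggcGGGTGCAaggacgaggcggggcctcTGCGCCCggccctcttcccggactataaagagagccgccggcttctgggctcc
SLC30A1: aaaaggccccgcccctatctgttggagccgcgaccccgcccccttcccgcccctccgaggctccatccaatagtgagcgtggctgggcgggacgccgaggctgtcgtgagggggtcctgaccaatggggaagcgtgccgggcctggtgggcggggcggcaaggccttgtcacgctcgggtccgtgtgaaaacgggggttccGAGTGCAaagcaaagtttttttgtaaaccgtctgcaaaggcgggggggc
MT1H: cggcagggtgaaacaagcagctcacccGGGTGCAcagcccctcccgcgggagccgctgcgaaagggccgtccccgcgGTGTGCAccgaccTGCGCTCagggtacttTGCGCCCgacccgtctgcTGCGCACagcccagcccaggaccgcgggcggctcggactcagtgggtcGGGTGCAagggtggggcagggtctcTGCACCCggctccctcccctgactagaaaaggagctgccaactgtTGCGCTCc

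MT2A held 7 cores in these 250 bases and MT1X held 4. Of 35116 promoter windows of this length, 24.8% held at least 1 core, 0.37% at least 4 and 0.0313% at least 7. SLC30A1 held 1 core on the opposite strand, and MTF1 held 0. These windows were set by RefSeq starts, which differ from the GENCODE gene positions given below. The SLC30A1 window lay wholly upstream of the GENCODE start at 211578742. The MT2A window lay wholly inside the GENCODE gene (56608199 to 56609497). Cores before the GENCODE starts were not counted, so the contrast between SLC30A1 and MT2A holds for the RefSeq starts only. A core began 53 or 54 bases before the start in MT2A, MT1X, MT1H and MT1B, as the map of cores shows. The letters TATAAA, searched on both strands, were present in the windows of MT2A and MT1X and in 10.7% of all windows. These matches describe letters in the window and not binding. Promoters of MT1E, MT1F, MT1G and MT1M were not in the table.

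**Figure D1:**
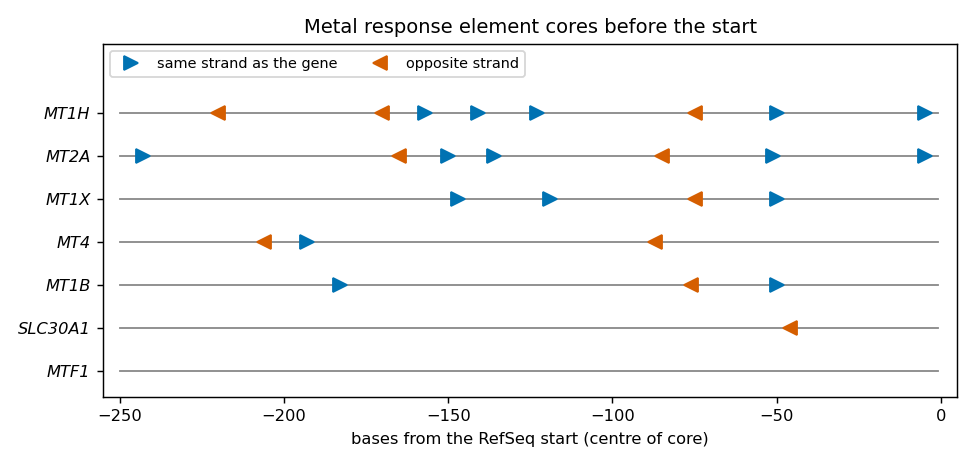
Positions of metal response element cores in the 250 bases before the RefSeq start for the members and other metallothionein genes with a sequence, in bases from the start (x axis); triangles point in the direction of the strand that carries the core. MT1H has 8 cores, MT2A 7, MT1X 4, MT4 and MT1B 3 each, SLC30A1 1 and MTF1 0.

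Of the 16 metallothionein genes and pseudogenes read here, 15 lie within 119.1 kb of chromosome 16 (GRCh38, 56565049 to 56684196). In order along the chromosome the members are MT2A (56608199 to 56609497), MT1E (56625475 to 56627112), MT1M (56632233 to 56633986), MT1F (56657694 to 56660698), MT1G (56666731 to 56668065) and MT1X (56682424 to 56684196). All are protein-coding and on the plus strand except MT1G, which is on the minus strand. MTF1 (37809567 to 37859620) and SLC30A1 (211571568 to 211578742) are both on the minus strand of chromosome 1.

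Because metallothionein genes are near-copies of each other, the share of each gene's 75-base stretches that also occur in transcripts of another gene was counted, 75 bases being the read length. Only exact matches to annotated transcripts were counted. Shorter trimmed reads and mismatches are not covered, so each share is a lower bound on ambiguity. The share was 0% for MT2A, MT1F and SLC30A1, 0.231% for MT1M, 0.415% for MTF1, 1.43% for MT1E and 5.73% for MT1G. For MT1X it was 14.3%, of which an overlapping transcript on the same strand accounted for 12.9% of the gene's stretches. These shares pool the stretches of all 4 annotated MT1X transcripts. The overlapping gene shares 321 exon bases with MT1X, whose principal transcript has 450 bases. It had 0 reads in every library. If reads in shared bases were counted for neither gene, the MT1X count would be too low, which was not tested. Reads of MT1X and MT1G are thus the least certainly assigned, and the handling of shared and overlapping reads in the counting is not given in the sources used here.

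Without doxycycline AB8 cells expressed chiefly MT2A and MT1E. Per kb of the principal transcript, MT2A stood at 720 ± 167 CPM per kb and MT1E at 268 ± 41.6 (SD, n = 4). The pseudogene MT1L followed at 77.6 ± 19.7 CPM per kb, and its 75-base stretches were shared with no other gene's transcripts. MT1X at 18.7 ± 4.70, MT1F at 10.6 ± 4.24 and MT1G at 8.70 ± 10.3 came next, with ranges that overlapped between neighbours. Given the overlap described above, the MT1X level may be too low. SLC30A1 at 5.95 ± 1.89 and MTF1 at 4.21 ± 0.38 CPM per kb had overlapping ranges too, and MT1M was at 0.323 ± 0.285. With lengths taken over all annotated exons, a choice made after seeing the data, MT2A, MT1E and MT1L kept ranks 1 to 3 while SLC30A1 moved from rank 7 to 4 and MT1F from 5 to 8.

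MT2A and MT1E together took 92.5% to 94.6% of all metallothionein reads of the cluster in each of the 8 libraries. The cluster as a whole summed to 551, 869, 905 and 900.5 CPM in woDox libraries 1 to 4 and to 367, 894, 854 and 724 CPM in Dox libraries 1 to 4. The 2 lowest sums were those of the libraries numbered 1, and the remaining 3 of each group overlapped between groups. MT1E gave 0.286 to 0.395 reads per read of MT2A across the libraries, 0.340 ± 0.0473 without and 0.323 ± 0.0419 with doxycycline (SD, n = 4).

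Other metallothionein genes were near or under the detection limit. A count of 0 in a library allows up to 3 reads, or 0.13 to 0.178 CPM, covering counting error only. MT1HL1, MT1CP and MT4 had 0 reads in all 8 libraries, MT1B had 1, MT1H 3, MT3 (the brain form) 5, MT1DP 8, MT1JP 11 and MT1A 32 reads over all libraries. MT1M, a member, had 2, 2, 6 and 10 reads in woDox libraries 1 to 4 and 0, 6, 8 and 10 in Dox libraries 1 to 4. It failed the expression filter and was not tested, and its groups overlapped.

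Between same-numbered libraries the zinc exporter SLC30A1 was higher and MT1X lower in induced cells, each by less than the spread within the groups. MT2A, MT1F, MT1G, MT1E and MTF1 did not pass either fit, which does not show that they were equal. Without the replicate number as a block, 0 of the 7 tested members passed (edgeR quasi-likelihood test, false discovery rate 0.05 over all genes), 0 had an unadjusted p under 0.05 and 0 passed with DESeq2. The background was 0.0384% of tested genes called, 0.032% higher and 0.0064% lower. With the block 2 of 7 passed, SLC30A1 higher and MT1X lower, against 13.8% of all tested genes, 7.51% higher and 6.29% lower. None of the 7 had groups that did not overlap, a pattern shown by 7.04% of tested genes, 3.82% with Dox above and 3.22% with Dox below. The sign was the same in all 4 pairs for 4 members, SLC30A1 and MTF1 higher and MT1E and MT1X lower, beside 35.6% of tested genes, 18.6% higher and 17.0% lower. The members' median log2 change was -0.21 with the block and that of all tested genes was 0.00028. The count of members passing was 1 when any 1 of the numbers was left out of both groups, but not always the same gene. It was MT1E without number 1, MT1X without number 2, and SLC30A1 without number 3 or 4. The count was 0 with DESeq2 and the block, where 7.08% of tested genes passed.

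SLC30A1, the zinc exporter of the plasma membrane, stood at 18.5, 38.1, 42.1 and 31.6 CPM in woDox libraries 1 to 4 and at 24.1, 47.0, 45.8 and 35.0 CPM in Dox libraries 1 to 4. Every Dox library lay above the woDox library of its number, and the groups overlapped, also among libraries 2 to 4. Both libraries numbered 1 were the lowest of their groups. The log2 change was 0.39, 0.30, 0.12 and 0.15 in pairs 1 to 4. With the block SLC30A1 rose by 17.4% (log2 change 0.23, SE 0.05, edgeR adjusted p = 0.0126), while the unblocked change of 0.22 did not pass (SE 0.28, adjusted p = 0.895). That unblocked value was 0.03 without woDox library 1 and 0.38 without Dox library 1. The call was lost without number 1 (adjusted p = 0.0509), without number 2 (0.0542) and with DESeq2 and the block (0.0734), and held without number 3 (0.0239) or 4 (0.0387).

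MT1X, a metal-inducible isoform, stood at 5.77, 10.1, 10.1 and 7.60 CPM in woDox libraries 1 to 4 and at 4.00, 9.32, 6.81 and 6.30 CPM in Dox libraries 1 to 4. It was lower in 4 of 4 pairs, with log2 changes of -0.52, -0.12, -0.56 and -0.27. With the block MT1X fell, by a log2 change of -0.35 (edgeR, SE 0.10, adjusted p = 0.0339). The unblocked value was -0.34 (SE 0.27, adjusted p = 0.783), -0.17 without Dox library 1 and -0.56 without Dox library 2. It rested on 79 to 217 reads a library. It was lost without number 1 (adjusted p = 0.0881), 3 (0.192) or 4 (0.0828) and with DESeq2 and the block (0.184), and held without number 2 (0.0202).

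MT1E, the second most abundant metallothionein, stood at 147, 213, 206 and 188 CPM in woDox libraries 1 to 4 and at 95.5, 189, 187 and 162 CPM in Dox libraries 1 to 4. It too was lower in 4 of 4 pairs, and the groups overlapped. The log2 change was -0.28 with the block (SE 0.09, edgeR adjusted p = 0.0966) and did not pass. Pair 1 gave -0.63 and the other pairs -0.14 to -0.21, and without number 1 the change of -0.18 passed (adjusted p = 0.00907). Without the block it was -0.25 (adjusted p = 0.809), -0.35 without woDox library 1 and -0.08 without Dox library 1.

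MT2A, the main human metallothionein, stood at 374, 591, 642 and 658 CPM in woDox libraries 1 to 4 and at 249, 654, 617 and 513 CPM in Dox libraries 1 to 4. It was lower in 3 of 4 pairs and higher in pair 2 (log2 changes -0.59, 0.15, -0.06 and -0.36). It passed neither with the block (-0.21, SE 0.15, edgeR adjusted p = 0.47) nor without it (-0.16, SE 0.30, adjusted p = 0.938). Its direction turned to 0.07 when Dox library 1 was left out of the fit without the block.

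MT1F stood at 3.23, 9.94, 8.78 and 7.18 CPM in woDox libraries 1 to 4 and at 2.83, 9.71, 8.19 and 7.25 CPM in Dox libraries 1 to 4. Within each number the values were nearly the same, with log2 changes of -0.18, -0.03, -0.10 and 0.01. The log2 change with the block was -0.06 (SE 0.09, edgeR adjusted p = 0.705). Both libraries numbered 1 were the low ones, at 0.375 and 0.338 times the mean of the other 3 in their group.

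MT1G had the largest fitted change, and 1 library set it. Its read counts were 16, 209, 33 and 34 in woDox libraries 1 to 4 and 17, 36, 37 and 38 in Dox libraries 1 to 4. WoDox library 2 stood at 9.76 CPM and all other libraries between 0.796 and 2.03 CPM. The fit without the block gave a log2 change of -1.20 (SE 0.73, edgeR adjusted p = 0.695), and 0.09 (adjusted p = 0.983) once woDox library 2 was left out. With the block it was -0.99 (adjusted p = 0.454). The same library was also the highest of its group for MT1E, MT1F and MT1X, and not for MT2A. Its lead there over woDox library 3 was small, at 213 against 206, 9.94 against 8.78 and 10.13 against 10.08 CPM. No rise like that of MT1G was seen in these genes.

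MTF1, the zinc-sensing regulator, stood at 34.2, 35.9, 35.2 and 29.1 CPM in woDox libraries 1 to 4 and at 34.9, 39.0, 37.4 and 34.5 CPM in Dox libraries 1 to 4. It was higher in 4 of 4 pairs by 0.03 to 0.24 in log2. The change of 0.12 did not pass with the block (SE 0.05, edgeR adjusted p = 0.141) or without it (adjusted p = 0.741). Unlike the metallothioneins, MTF1 did not drop in the libraries numbered 1.

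**Figure D2:**
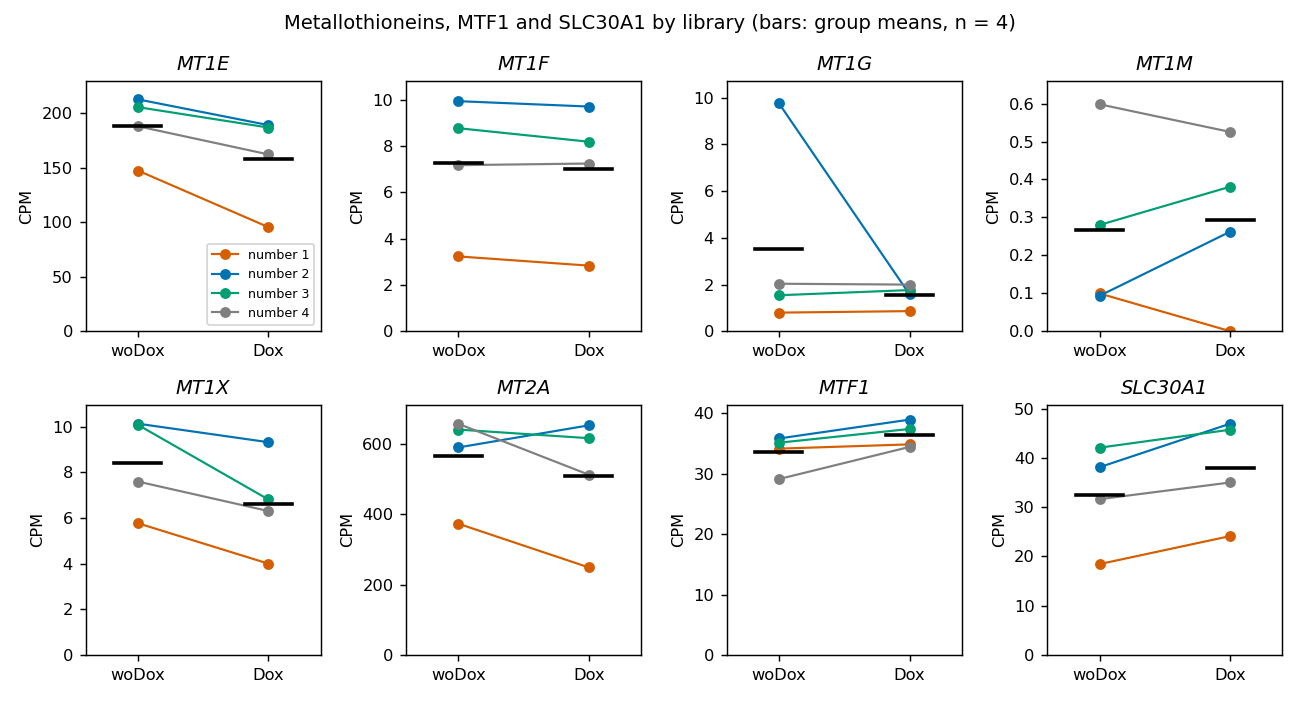
CPM (y axis, from 0) of each of the 8 genes in the woDox and Dox libraries (x axis); each line joins the 2 libraries of 1 number and black bars are group means (n = 4). Lines for SLC30A1 slope up and lines for MT1E and MT1X slope down in all 4 numbers, library 1 is low in both groups for 6 genes, and MT1G is high in woDox library 2 only.

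**Figure D3:**
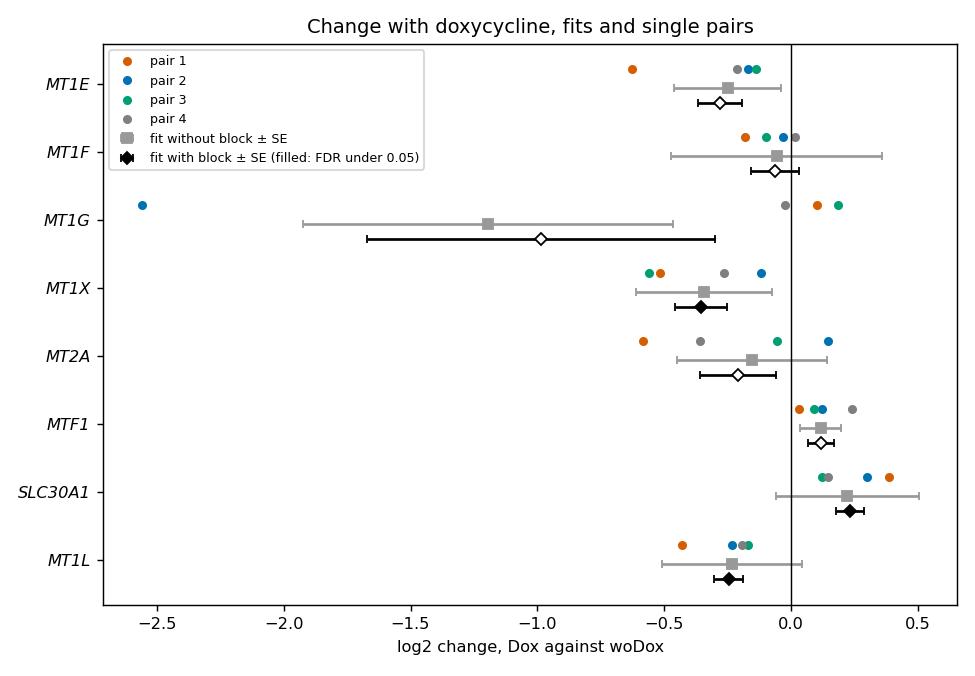
Log2 change, Dox against woDox (x axis), of the 7 tested members and MT1L (y axis): circles are single pairs, grey squares the fit without and diamonds the fit with the replicate block, with bars of 1 SE and filled diamonds past the threshold. The SE of SLC30A1 is 0.28 without and 0.05 with the block.

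The pseudogene MT1L, the only other metallothionein gene tested, fell with the block. It stood at 19.8, 35.0, 36.3 and 36.5 CPM in woDox libraries 1 to 4 and at 14.7, 29.7, 32.2 and 31.9 CPM in Dox libraries 1 to 4. It was lower in 4 of 4 pairs, with a log2 change of -0.25 (SE 0.06, edgeR adjusted p = 0.0115). Without the block the adjusted p was 0.887, and with DESeq2 and the block 0.0592. MT1L passed with the block without any 1 of the numbers.

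Levels of MT1E, MT1F, MT1X, MT2A and SLC30A1 varied more within groups than within same-numbered pairs. The SD of log2 CPM within groups was 0.75 for MT1F, 0.53 for MT2A, 0.44 for MT1X, 0.37 for MT1E and 0.49 for SLC30A1, against a median of 0.177 over all tested genes. The SD within same-numbered pairs is what remains once pair means and group means are both removed. It shows how far the Dox change differed between pairs, not the size of the change. This SD was 0.06 for MT1F, 0.09 for SLC30A1, 0.15 for MT1X, 0.16 for MT1E and 0.23 for MT2A, against a median of 0.0931. The SD within groups was 12.4 times that within pairs for MT1F and 5.46 times for SLC30A1, and the median ratio over all tested genes was 1.63. Only 3.89% of tested genes had a larger SD within groups than MT1F, and 70.2% had a larger SD within pairs. MT1G differed, with an SD of 1.10 within groups and 0.94 within pairs, a ratio of 1.17, and 0.173% of tested genes had a larger SD within pairs. MTF1 had an SD of 0.11 within groups, and 71.8% of tested genes had a larger one.

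In the libraries numbered 1, 6 of the 7 tested members were the lowest of both groups, MTF1 being the exception, beside 28.1% of tested genes. Relative to the mean of the other 3 libraries in the group, MT2A stood at 0.593 times in woDox library 1 and 0.419 times in Dox library 1. MT1E stood at 0.729 and 0.532 times, MT1X at 0.622 and 0.535 times and SLC30A1 at 0.495 and 0.567 times. The labels do not say what the number stands for.

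**Figure D4:**
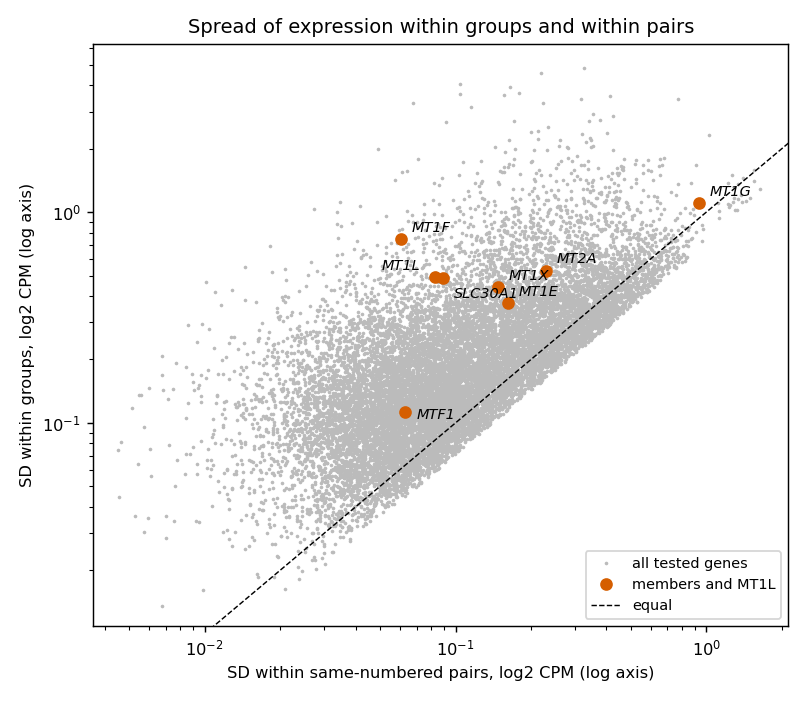
SD of log2 CPM within groups (y axis, log scale) against SD within same-numbered pairs, with pair and group means removed (x axis, log scale), for all tested genes (grey) and for the tested members and MT1L (orange); the dashed line marks equal values. MT1F lies far above the line with an SD of 0.75 against 0.06, and MT1G lies near it with 1.10 against 0.94.

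Genes with the most similar profile over the 8 libraries were found by Pearson's r of log2 CPM, a description over libraries that share the low libraries numbered 1. For MT2A these were RFX8, UNC119, PLBD2, CMAS and TMED9, with r from 0.985 to 0.993. Over the 6 libraries without number 1, r was 0.781 to 0.938. For SLC30A1 they were the cytoskeletal linker PLEC, RFPL1S, TMED7, CEP170B and PELI3 (r 0.986 to 0.990, and 0.937 to 0.975 over 6 libraries). For MTF1 they were the cohesin acetyltransferase ESCO2, HP1BP3, the helicase DHX8, RALGAPA1 and MMS22L (r 0.962 to 0.976, and 0.972 to 0.980).

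Among the other zinc transporters of the exporter list, 2 of 6 tested genes rose and 1 fell with the block, beside 7.51% of all tested genes higher and 6.29% lower. Without it 0 passed in edgeR and 0 in DESeq2 with all 8 libraries. An unadjusted p under 0.05 was seen for 2, beside 1466 of all 15637 tested genes. Without the block and without both libraries numbered 1, edgeR called 1 gene of this list lower, and 543 genes in all. SLC30A6, which works in the early secretory pathway, stood at 37.6, 42.6, 43.1 and 43.2 CPM in woDox libraries 1 to 4 and at 45.5, 47.9, 49.0 and 51.8 CPM in Dox libraries 1 to 4. Its groups did not overlap, and it rose by 16.7% with the block (log2 change 0.22, SE 0.04, edgeR adjusted p = 0.00527), as it did in all 5 other fits with the block. SLC30A4 rose by 0.31 (adjusted p = 0.0317), a call lost without any 1 of the numbers (adjusted p 0.0511 to 0.139) and with DESeq2 and the block (0.237). TMEM163, a zinc efflux protein of vesicles, fell from 2.63 ± 1.53 to 1.15 ± 0.69 CPM (SD, n = 4; log2 change with the block -1.15, SE 0.22, adjusted p = 0.00427), and DESeq2 with the block gave it no adjusted p.

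Zinc importers of the SLC39 (ZIP) family raise cytosolic zinc. With the block 2 of 11 tested importers rose and 0 fell, a share of 18.2% beside 13.8% of all tested genes, near that background. Without it 0 passed in edgeR and 0 in DESeq2, with 1 at an unadjusted p under 0.05, beside 1466 of all 15637 tested genes. SLC39A10, an importer of the cell surface that MTF1 is known to repress, rose from 39.7 ± 6.15 to 47.1 ± 5.51 CPM (SD, n = 4; log2 change with the block 0.25, SE 0.05, edgeR adjusted p = 0.00283) and in 4 of 4 pairs, and kept its call in all 5 other fits with the block. SLC39A9 rose by 0.19 (SE 0.04, adjusted p = 0.0118) with groups that did not overlap, and was lost without number 4 (0.0874). SLC39A14, chosen for its values as the importer with the highest CPM, had -0.11 with the block (adjusted p = 0.0685) and passed without number 4 (-0.15, 0.0489). SLC39A13 passed without number 2 (-0.20, 0.021). The median over the importers was -0.01.

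**Figure D5:**
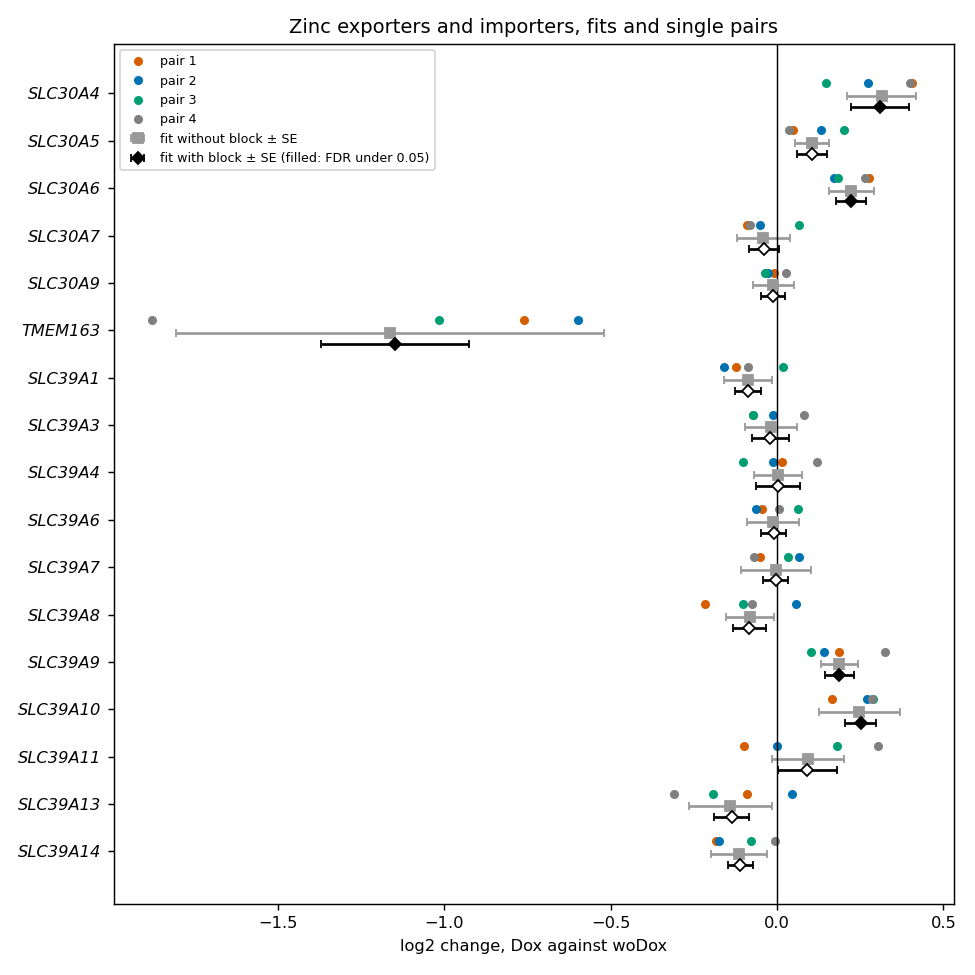
Log2 change, Dox against woDox (x axis), of the tested zinc exporters other than SLC30A1 and of the tested SLC39 importers (y axis), with single pairs (circles), the fit without (grey squares) and with the replicate block (diamonds, filled past the threshold) and bars of 1 SE. The filled genes are SLC30A4, SLC30A6, TMEM163, SLC39A9 and SLC39A10.

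Copper and iron handling, metal stress, glucocorticoid and cluster-neighbour genes had 0 calls in edgeR without the block. At an unadjusted p under 0.05 they had 1, 2, 2, 0 and 0, beside 1466 of all 15637 tested genes. DESeq2 without the block called 1 iron gene lower and 0 in the other 4 lists, and edgeR with no filter did the same. These 2 fits called 240 and 37 genes in all. Without the block and without both libraries numbered 1, edgeR called 2 iron genes lower, 1 stress gene higher and 1 lower, and 1 glucocorticoid gene lower. That fit called 543 genes in all. Of 10 copper-handling genes 1 fell with the block, beside 6.29% of all tested genes lower. It was SOD1, the copper-zinc superoxide dismutase (log2 change -0.16, SE 0.04, edgeR adjusted p = 0.0228). The SOD1 call was lost without number 1 (0.0832) or 4 (0.11) and with DESeq2 and the block (0.0526). Of 11 iron-handling genes 2 rose and 2 fell with the block, beside 7.51% of all tested genes higher and 6.29% lower. The mitochondrial iron importer SLC25A37 fell from 157 ± 14.6 to 102 ± 14.8 CPM (SD, n = 4; log2 change with the block -0.62, SE 0.12, adjusted p = 0.0408), with groups that did not overlap, and was lost without number 3 (0.119) or 4 (0.203). SLC25A37 also passed in 3 of 16 alternative fits without the block. The ferritin receptor NCOA4 rose by 0.17 with the block (adjusted p = 0.0206) and was lost without number 3 or 4 (0.0901 and 0.143). The iron regulatory protein IREB2 rose by 0.14 (0.0308) and was lost without number 1, 3 or 4 (0.103 to 0.164) and with DESeq2 and the block (0.132). The ferritin chain FTH1 fell by 0.12 on the log2 scale (0.0417). The iron count was 1 higher and 2 lower without number 1, 4 higher and 1 lower without number 2, and 0 in either direction without number 3 and without number 4. Those fits called 1721, 1969, 1254 and 909 genes in all. ACO1 was lower in 4 of 4 pairs but did not pass with the block and all 8 libraries (edgeR adjusted p = 0.141). Without number 1 ACO1 passed with the block (-0.22, 0.00357) and without the block (-0.22, 0.046). FTH1 was lost without any 1 of the numbers (0.0546 to 0.108) and with DESeq2 and the block (0.0628). The transferrin receptor TFRC, chosen after seeing its values, had -0.08 with the block (adjusted p = 0.14).

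Of 11 metal and oxidative stress genes outside the metallothioneins, 1 rose and 2 fell with the block. Of all tested genes 7.51% rose and 6.29% fell in that fit. The heme oxygenase HMOX1, which cadmium and heme induce, fell from 12.8 ± 1.78 to 9.57 ± 0.89 CPM (SD, n = 4; log2 change with the block -0.42, SE 0.08, edgeR adjusted p = 0.00427) and in 4 of 4 pairs. The cystine transporter SLC7A11 rose by 0.44 (SE 0.05, adjusted p = 6.9e-05). Both kept their calls in all 5 other fits with the block, and each passed in 1 of 16 alternative fits without it. The thioredoxin reductase TXNRD1 fell by 0.15 on the log2 scale (adjusted p = 0.0122), and was lost without number 3 (0.0579) or 4 (0.0646). Without number 2, GCLM also passed (-0.21, 0.0373).

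Glucocorticoids also induce metallothionein genes. Of 7 tested genes of that list 2 rose with the block, the receptor NR3C1 by 0.18 (SE 0.05, edgeR adjusted p = 0.02) and its target PER1 by 0.23 (SE 0.05, adjusted p = 0.0138). Of all tested genes 7.51% rose and 6.29% fell in that fit. NR3C1 was lost without number 1 or 4 (0.112 and 0.11) and with DESeq2 and the block (0.0695), and PER1 without number 1, 3 or 4 (0.0543 to 0.0711) and with DESeq2 and the block (0.116). The targets FKBP5 and TSC22D3, chosen after seeing their values, had 0.11 and 0.04 with the block (adjusted p 0.079 and 0.86). KLF9, SGK1 and DUSP1 went the other way in that fit, at -0.18, -0.14 and -0.18 (edgeR adjusted p 0.167, 0.249 and 0.673). Without number 1 this list had 0 genes higher and 1 lower, with and without the block, where 1721 and 543 genes were called in all. The gene lower in this list was the phosphatase DUSP1 (-0.41 with the block, edgeR adjusted p = 2.14e-04), whose log2 changes were 0.51, -0.45, -0.48 and -0.26 in pairs 1 to 4. Of 6 tested genes that flank the metallothionein cluster on chromosome 16, HERPUD1, an endoplasmic reticulum stress gene, rose by 0.15 with the block (adjusted p = 0.0434). It was lost without number 2, 3 or 4 (0.146 to 0.186) and with DESeq2 and the block (0.174). The share called with the block in this neighbour list was 16.7%, near the 13.8% of all tested genes. HERPUD1 stood at 130 and 131 CPM in the libraries numbered 1 and at 42.4 to 60.9 CPM in the others, the reverse of the metallothioneins.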

How the data were processed

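Directional libraries of 8 AB8 samples were sequenced as single reads of 75 bases, per the labels' protocols. The submitters' processing notes name HISAT2 2.1.0, HTSeq 0.11.1, Trimmomatic 0.38, bcl2fastq, the authors' DESeq2 1.24.0 and hg38/GRCh38, without roles. For the counting, neither annotation release nor strand setting is given in the sources used here. Raw read counts per Ensembl gene, as deposited by the authors, were tested. The authors also deposited a normalized signal, the counts over 1 factor per library, which was only compared with the counts. Names, positions and lengths came from GENCODE release 29 and a current name table (120 of 58395 IDs matched neither).

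Genes were filtered by filterByExpr (minimum count 10). TMM scaling and the robust quasi-likelihood test were run in edgeR 4.0.16 (R 4.3.3), two-sided, with Benjamini-Hochberg adjustment over all tested genes and a threshold of 0.05. Log2 CPM used a prior count of 2, and CPM per kb the principal transcript. The fits were tested on simulated data with larger changes than those of the called members and with no outlying library. That check does not measure power or error rates at the sizes reported here. Alternatives included DESeq2 1.42.0, other scalings and filters, left-out libraries and the replicate number as a block. Deviations from group means over 11502 genes correlated at 0.648 to 0.911 in same-numbered pairs and at -0.775 to 0.667 otherwise. Each of the 8 libraries was closest to the library of its own number. The numbers were therefore treated as pairs, from the data and not from a statement in the labels, and the distance of both libraries numbered 1 by itself raises these correlations.

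Members, gene lists and tests were chosen with earlier results of these data known. The naming rule took CRB2, every member, up to 4 called genes per list by smallest p with the block, and the 5 genes most like MT2A, MTF1 and SLC30A1. Where none of a list was called it allowed the 2 most abundant. Genes named outside the rule (CSF1R, DUSP1, GCLM and SLC39A13 among them) were picked once their values were known. All 122 list entries were found. Values of some marker genes are not reported here.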

Additional observations from a re-analysis of the deposited data

Results flagged for a closer look

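A library was picked out when its gap to the nearest library of its group was, as a share of the group's range, above Dixon's 95% critical value for 4 values. Over 26 genes in both groups, 9 of 52 sets gave such a library. Chance would give about 1 in 20 for independent sets, but all sets share the same 8 libraries. Genes outside the members were named mostly for calls in these data, and the share over all tested genes is not given here. No excess over chance can therefore be read from this count. Of the 9 libraries picked out, 8 were libraries numbered 1. The exception was MT1G at 9.76 CPM in woDox library 2, against 0.796 to 2.03 CPM in the others.

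MT1L was low in both libraries numbered 1, at 19.8 CPM without and 14.7 CPM with doxycycline. SLC30A6 was low in woDox library 1 (37.6 CPM), and CRB2 in Dox library 1 (1734 CPM against 4252 to 4599 CPM). SLC7A11 (121 CPM) and NR3C1 (102 CPM) were high in Dox library 1. HERPUD1 was high in both, at 130 CPM without and 131 CPM with doxycycline.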

How the results depend on the processing

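Of 15637 tested genes, 6 passed without the replicate block. The count was 2159 with the block, 1107 with the block in DESeq2, 240 with DESeq2, 37 with no filter and 543 without both libraries numbered 1. With the block it was 1721, 1969, 1254 and 909 without numbers 1, 2, 3 and 4, and without the block and 1 library left out 3 to 16. Members called went from 0 to 2 with the block, and to 1 with the block and any 1 number left out. The member called then changed with the number left out. Members called were 0 in all other fits. Direction turned when single libraries were left out for MT1F (log2 change 0.13, 0.04 and 0.20 without woDox 2, woDox 3 and Dox 1), MT2A (0.07 without Dox 1), MT1G (0.09 without woDox 2, and 0.09 with the block without number 2), FTH1 (0.01 without Dox 1) and HERPUD1 (-0.06, -0.04 and -0.32 without woDox 2, woDox 3 and Dox 1), none of them called there. Over all single libraries left out, the range was -0.30 to 0.20 for MT1F, -1.53 to 0.092 for MT1G, -0.31 to 0.067 for MT2A, -0.21 to 0.011 for FTH1 and -0.32 to 0.65 for HERPUD1. With the block and number 2 left out MT1G was at 0.089. Ranks of level per kb by all exons, an alternative added after seeing the data, were 8 for MT1F, 5 for MT1X, 7 for MTF1 and 4 for SLC30A1. CPM by library totals moved no member by more than its SD. MT1M was tested only without a filter. MT1G, MT1X and MT1F had no value with the filter at 10 CPM. Depth limits MT1M, MT1G and the silent metallothioneins.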
